A study of Mus musculus with 16 samples.

Results

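Messenger RNA levels of 75 heat shock protein and chaperone genes were examined in mouse melanomas and melanocytes. They were taken from the 12393 genes with a probe set of their own on the array by their symbols, which name the heat shock proteins (Hsp), the J proteins of families A, B and C (Dnaja, Dnajb, Dnajc), the cytosolic chaperonin subunits (Cct) and the BAG co-chaperones (Bag1 to Bag6). iMet tumours gave 6 arrays, iHRAS* tumours 6 and melanocytes 4, all on Affymetrix mouse 430A 2.0 arrays. The iMet tumours carry Tyr-rtTA, Tet-Met and Ink4a/Arf-/-, that is, a tetracycline-inducible Met receptor. The iHRAS* tumours, named iRas in their titles, carry Tyr-rtTA, Tet-HRASV12G and Ink4a/Arf-/-, that is, an inducible activated HRAS. In both models a tyrosinase promoter drives the rtTA transactivator, which limits it to cells that use that promoter, and both lack Ink4a and Arf. The melanocytes were labelled as free of disease, and the sources used here give neither their genotype nor the age or induction time of the tumours. Per the sample labels the tumour RNA came from melanoma cells taken out of the mouse; the design text speaks of the melanomas themselves, and nothing used here settles which was hybridised. No label ties the arrays of a group to different animals, and the p-values here thus cover only the spread among these samples.

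Chaperones bind unfolded proteins and help them to fold, to cross membranes or to be degraded. HSP70 proteins work in cycles of ATP hydrolysis that J proteins start and that HSP110 and BAG proteins reset, HSP90 acts later on client proteins such as kinases, and small heat shock proteins hold unfolded proteins without ATP. Heat shock factor 1, when unfolded proteins accumulate, trimerises and binds heat shock elements in the promoters of cytosolic chaperone genes, whereas the chaperones of the endoplasmic reticulum answer mainly to the unfolded protein response. Melanomas, like other tumours, are known to depend on HSP90 clients, among them RAF kinases and the Met receptor.

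The samples were mixed in cell markers, and the marker levels bear on each comparison below. The melanocyte list (9 genes measured) had a mean log2 signal of 4.80 to 5.65 in iMet tumours, 5.33 to 7.43 in iHRAS* tumours and 4.39 to 5.49 in the melanocyte samples. In those labelled melanocytes the group means of 6 of the 9 markers, Mitf, Tyr, Tyrp1, Dct, Kit and Mc1r, lay under the detection level of 6.21. Those of Sox10 (9.66), Slc45a2 (7.08) and Pmel (6.70) lay above it. Sox10 also separated the models, with 6.08 to 7.66 in iMet tumours (mean 6.90) and 9.45 to 11.44 in iHRAS* tumours (mean 10.16). Macrophage markers (12 genes) averaged 10.33 to 11.06 in iMet tumours, 8.56 to 10.58 in iHRAS* tumours and 4.32 to 4.63 in melanocytes, and all 12 rose in each tumour model. Endothelial and fibroblast markers rose in both models too, for 10 of 12 and 6 of 10 genes in each. Endothelial markers also differed between the models, with 8 of 12 higher in iMet than in iHRAS* tumours (median difference 1.17). The endothelial list averaged 7.78 to 9.31 in iMet tumours, 7.13 to 7.87 in iHRAS* tumours and 4.33 to 5.39 in melanocytes. Smooth muscle markers (8 genes) averaged 6.26 to 7.36 in iMet tumours, 5.67 to 10.43 in iHRAS* tumours and 6.81 to 8.32 in melanocytes. The means of Myh11, Cnn1 and Myocd lay under the detection level in all groups, but single arrays exceeded it. Cnn1 was 10.59 on iHRAS* array 2, 8.32 and 7.89 on melanocyte arrays 1 and 3, and 6.95 on iMet array 4. Myh11 was 9.86 on iHRAS* array 2. Of the 6 smooth muscle markers tested against melanocytes, Tagln (−3.91 in iMet, −3.67 in iHRAS*) and Acta2 (−1.92 and −3.03) fell in both models, and 0 rose. Keratinocyte markers averaged 4.70 to 9.27 in iMet tumours, 8.60 to 10.86 in iHRAS* tumours, and 7.24, 8.88, 6.43 and 8.73 in melanocyte arrays 1 to 4. Melanocyte arrays 1 and 3 differed from arrays 2 and 4 in keratinocyte and fibroblast markers, and iHRAS* arrays 5 and 6 had Xist at 6.60 and 6.33 against 10.92 to 13.07 on the other 14 arrays. In such bulk samples fewer cells of a type and less RNA per cell cannot be told apart, and the part of these markers in the chaperone results was not tested.

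The chaperone genes as a whole were called about as often as any gene, but against melanocytes their calls ran mostly downwards. Of the 75 genes, 63 were bright enough to be tested. Between the tumour models 13 of these 63 were called (20.6%, against 20.9% of all 8058 genes tested), 8 higher in iMet tumours (12.7%, against 11.2%) and 5 lower (7.94%, against 9.7%). In iMet tumours against melanocytes 22 were called (34.9%, against 35.1% of 8651 genes), 5 higher (7.94%, against 16.4%) and 17 lower (27%, against 18.7%). In iHRAS* tumours against melanocytes 25 were called (39.7%, against 39.3%), 2 higher (3.17%, against 18.1%) and 23 lower (36.5%, against 21.3%). Lower calls outnumbered higher ones in both of these comparisons. Among the higher calls, Dnajc24 between the models and Hspb7 in iMet tumours over melanocytes passed the filter on dim genes only through their iMet arrays, and both are described without a test. The median log2 difference of the tested members was 0.25 between the models, against 0.03 for all genes. It was −0.20 in iMet and −0.32 in iHRAS* tumours against melanocytes, where all genes had −0.08 and −0.09. Both comparisons with melanocytes use the same 4 melanocyte arrays.

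**Figure D1:**
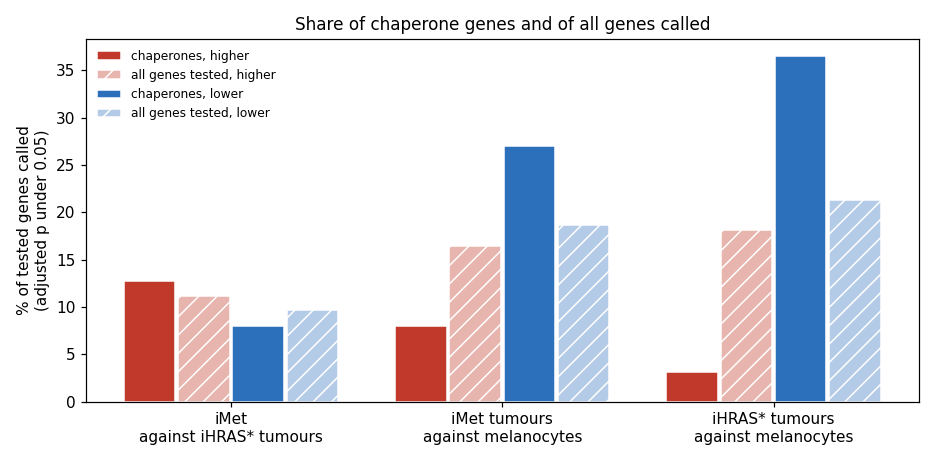
Share of tested genes called at a limma adjusted p under 0.05 (vertical axis, percent) in each of the 3 comparisons, for the 63 chaperone genes (solid bars) and for all genes tested (hatched bars), split into higher (red) and lower (blue) in the first-named group. The lower calls of chaperones against melanocytes stand at 27% for iMet and 36.5% for iHRAS* tumours, against 18.7% and 21.3% of all genes.

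These directions depended in part on how the arrays were scaled. With the values as deposited, 18 members were higher and 0 lower in iMet than in iHRAS* tumours, while 22% of all genes were higher and 5.47% lower and the median of all genes moved to 0.23. On that scale 6 members were higher and 13 lower in iMet tumours than in melanocytes, and 2 were higher and 32 lower in iHRAS* tumours, with all-gene medians of 0.01 and −0.21. Of all genes, 17.6% were higher and 13.8% lower in iMet tumours on that scale, and 15.4% higher and 27.9% lower in iHRAS* tumours. With each array centred on its median the splits were 7 higher and 3 lower between the models, 3 and 28 for iMet tumours against melanocytes, and 2 and 31 for iHRAS* tumours against melanocytes (all-gene medians of 0.03, −0.22 and −0.23). Of all genes, 10.1% were then higher and 7.83% lower in iMet than in iHRAS* tumours. Against melanocytes 13.6% were higher and 26.7% lower in iMet tumours, and 15.4% higher and 29.7% lower in iHRAS* tumours. Members had more lower than higher calls against melanocytes on each of these scales, as did all genes except in iMet tumours as deposited, and the split between the models moved with the scaling.

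The group ranges were taken from the same values, without any test. Among the members entirely higher in iMet tumours, Dnajc24 and Hspb7 passed the filter on dim genes only through their iMet arrays. Between the models 4 tested members had every iMet value above every iHRAS* value (Hspa4l, Hspa14, Hspb11 and Dnajc24) and 3 had the reverse (Dnajb5, Dnajb9 and Dnajb12), where 5.83% and 4.89% of all tested genes did so. Against melanocytes 4 members were entirely higher in iMet tumours (Hspa4l, Hspb7, Hsp90b1 and Dnajc13) and 12 entirely lower (12.6% and 15% of all tested genes). In iHRAS* tumours 3 were entirely higher (Hsp90b1, Dnajb9 and Dnajc13) and 15 entirely lower (11.2% and 14.1%).

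**Figure D2:**
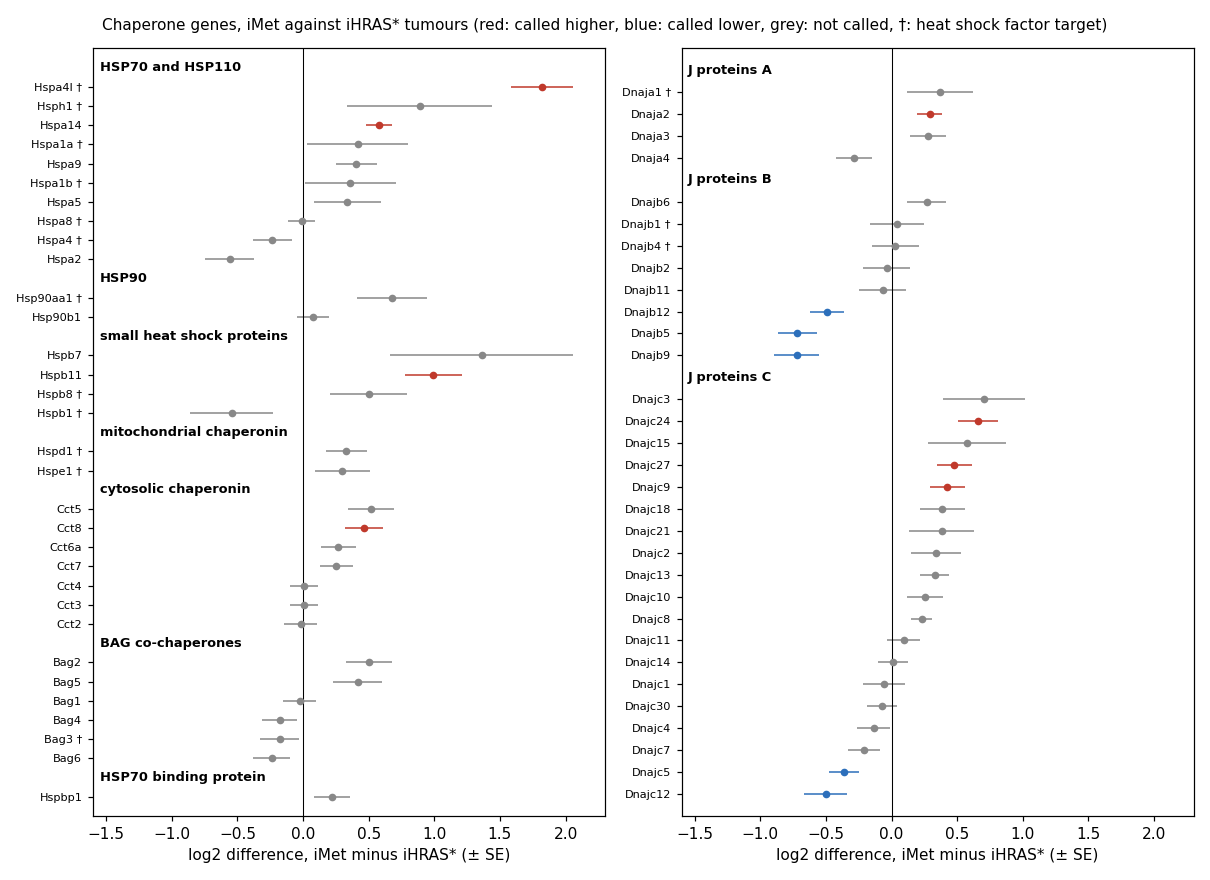
Log2 difference between the tumour models, iMet minus iHRAS* (horizontal axis, points with standard error bars), for the 63 tested chaperone genes grouped by class. Red points were called higher (8 genes, led by Hspa4l at 1.82), blue points lower (5 genes, down to −0.72), grey points were not called, and a dagger marks a heat shock factor target.

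Heat shock factor targets were asked about as a group, since they answer to a common regulator. The list held 15 measured members, all of them tested. Between the models 1 of the 15 was called (6.67%, against 20.9% of all genes), while 11 of the 15 differences were positive and their median was 0.33. The 48 tested members outside the list had 31 positive differences and a median of 0.24. In iMet tumours against melanocytes 2 rose (13.3%, against 16.4%) and 3 fell (20%, against 18.7%), with a median of 0.03. In iHRAS* tumours 0 rose (against 18.1%) and 3 fell (20%, against 21.3%), with a median of −0.28. The members outside the list had medians of −0.27 in iMet and −0.32 in iHRAS* tumours against melanocytes. At an unadjusted p under 0.05 in limma, 2 of the 15 targets passed between the models and 6 in each comparison with melanocytes. Every called gene passes that threshold too. At least 20.9% of all genes thus passed it between the models, 35.1% for iMet and 39.3% for iHRAS* tumours against melanocytes. With the deposited scaling or with median-centred arrays, 6 and 5 targets fell in iHRAS* tumours against melanocytes, where 27.9% and 29.7% of all genes fell.

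Promoters of these genes were read from the RefSeq promoter table (build GRCm38.p6), which held 62 of the 75 members and 13 of the 15 targets. A heat shock element was searched as 3 alternating units, GAANNTTCNNGAA or TTCNNGAANNTTC. Each of these is the reverse complement of the other, so both strands were covered, and neighbouring matches may overlap. It occurred in the promoters of 3 of the 13 targets (23.1%), Hspd1, Hspe1 and Hsph1, in 1 of the 49 other members (Dnajb6), and in 179 of 27025 genes of the table (0.662%). The promoters of Hspe1 and Hspd1, which face each other and share the same stretch, and of Hsph1 are shown with the matched letters in capitals, beside that of Hspa4l, the target that differed most between the tumour models and whose window holds no match. Each is 300 bases around 1 transcript start given by the table, 5′ to 3′ on the gene's own strand. For Hspa4l, Hspd1 and Hsph1 that start lies inside the span annotated for the gene, and the table gives Hspd1 and Hsph1 2 windows each, of which 1 is shown.
Hspe1 (chr1:55087898-55088197, plus strand): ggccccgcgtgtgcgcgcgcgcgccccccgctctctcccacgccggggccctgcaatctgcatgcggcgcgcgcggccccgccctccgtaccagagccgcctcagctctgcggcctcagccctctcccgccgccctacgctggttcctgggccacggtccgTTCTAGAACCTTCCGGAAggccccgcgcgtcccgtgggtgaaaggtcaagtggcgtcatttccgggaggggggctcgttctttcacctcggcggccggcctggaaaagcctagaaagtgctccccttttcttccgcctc
Hspd1 (chr1:55087883-55088182, minus strand): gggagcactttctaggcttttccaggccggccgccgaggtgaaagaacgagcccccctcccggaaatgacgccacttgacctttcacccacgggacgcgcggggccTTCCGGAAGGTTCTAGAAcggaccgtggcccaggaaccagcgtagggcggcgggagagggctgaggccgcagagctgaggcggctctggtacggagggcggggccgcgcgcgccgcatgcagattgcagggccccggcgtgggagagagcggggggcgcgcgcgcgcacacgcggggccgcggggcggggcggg
Hsph1 (chr5:149636266-149636565, minus strand): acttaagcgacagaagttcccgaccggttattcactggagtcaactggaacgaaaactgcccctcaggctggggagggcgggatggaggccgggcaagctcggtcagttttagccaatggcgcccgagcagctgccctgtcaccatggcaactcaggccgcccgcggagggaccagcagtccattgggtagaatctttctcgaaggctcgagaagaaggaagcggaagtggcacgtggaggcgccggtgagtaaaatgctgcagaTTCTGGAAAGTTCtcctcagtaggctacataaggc
Hspa4l (chr3:40745363-40745662, plus strand): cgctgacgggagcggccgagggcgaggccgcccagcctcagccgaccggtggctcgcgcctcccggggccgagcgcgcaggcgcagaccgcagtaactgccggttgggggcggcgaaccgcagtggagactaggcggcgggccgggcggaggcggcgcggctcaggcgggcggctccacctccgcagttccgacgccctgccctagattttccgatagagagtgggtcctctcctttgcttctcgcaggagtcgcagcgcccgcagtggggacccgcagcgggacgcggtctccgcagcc
The match in the Hspe1 promoter begins 89 bases before that start, that in the Hspd1 promoter 144 bases before, and that in the Hsph1 promoter 15 bases after. A match describes these letters only, and the lack of one says nothing of the factor.

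Among the HSP110 and HSP70 genes on that list, Hspa4l stood apart. Hspa4l encodes an HSP110 family protein that exchanges the nucleotide of HSP70. Its log2 signal ran from 9.42 through a median of 9.78 to 10.47 in iMet tumours and from 7.46 through 8.11 to 8.58 in iHRAS* tumours, and it was 7.57, 8.28, 7.73 and 8.95 in the 4 melanocyte arrays. All 6 iMet tumours lay above every other array, while iHRAS* tumours and melanocytes overlapped. Between the models it was 1.82 ± 0.24 log2 units higher in iMet tumours (SE; 3.53-fold; adjusted p = 0.000421 in limma's moderated test). Relative to melanocytes the rise in iMet tumours was 1.76 ± 0.30 (adjusted p = 0.000444), and the difference in iHRAS* tumours was −0.06 ± 0.30 (adjusted p = 0.897). Its second probe set gave 1.53 and 1.57 for the 2 differences that were called. Both calls were kept in every alternative setting, with 1.67 to 2.03 between the models and 1.28 to 2.24 over melanocytes.

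Its relatives behaved differently. Hsph1, the HSP110 most strongly induced by heat, ran from 8.59 through 9.54 to 11.11 in iMet tumours and from 7.45 through 8.34 to 10.45 in iHRAS* tumours, and was 8.92, 9.17, 9.25 and 9.33 in melanocytes. The tumours spread widely on both sides of the narrow melanocyte range. The difference between the models was 0.89 ± 0.55 (adjusted p = 0.275). Hspa4, another HSP110 protein, ran from 9.86 through 9.89 to 10.14 in iMet tumours and from 9.90 through 10.13 to 10.82 in iHRAS* tumours, and was 10.55, 10.58, 10.55 and 10.39 in melanocytes. Every iMet tumour lay below every melanocyte array. It fell by 0.56 ± 0.15 in iMet tumours against melanocytes (adjusted p = 0.0103), and was not called in iHRAS* tumours (−0.33 ± 0.15, adjusted p = 0.0988). The call rests on 1 of 3 probe sets, because the others gave −0.14 and 0.19 and the mean of all 3 gave −0.17 (adjusted p = 0.593).

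The stress-inducible HSP70 genes Hspa1a and Hspa1b encode near-identical proteins, so their probe sets may share signal. Hspa1b ran from 9.22 through 10.59 to 11.12 in iMet tumours and from 9.16 through 10.23 to 10.67 in iHRAS* tumours, and was 8.96, 9.87, 8.32 and 9.70 in melanocytes. The 3 groups overlapped, with melanocyte arrays 2 and 4 above arrays 1 and 3. It rose by 1.23 ± 0.40, or 2.34-fold, in iMet tumours over melanocytes (adjusted p = 0.0288), and the difference in iHRAS* tumours was 0.87 ± 0.40 (adjusted p = 0.101). The rise was 0.65 without melanocyte arrays 1 and 3 (adjusted p = 0.332), 1.80 without arrays 2 and 4 (adjusted p = 0.0180), and 1.09 to 1.16 without iMet array 2, 5 or 6 (adjusted p = 0.0533 to 0.0569). Hspa1a ran from 6.32 to 8.59 in iMet tumours, from 5.73 to 7.83 in iHRAS* tumours and from 6.11 to 6.92 in melanocytes, and was not called in any comparison. Hspa8, the constitutive cytosolic HSP70, ran from 12.76 through 12.99 to 13.22 in iMet tumours and from 12.87 through 13.01 to 13.19 in iHRAS* tumours, and was 13.02, 13.00, 12.81 and 13.05 in melanocytes. The ranges of the 3 groups nearly coincided, and the difference between the models was −0.01 ± 0.10 (adjusted p = 0.955). The mean of its probe sets, in contrast, gave 0.42 in iHRAS* tumours over melanocytes (adjusted p = 0.0363).

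The small heat shock protein Hspb1, which binds unfolded proteins and actin filaments, fell most among the targets. Its log2 signal ran from 9.999 through 10.90 to 11.53 in iMet tumours and from 10.61 through 11.41 to 12.11 in iHRAS* tumours, and was 12.60, 12.94, 11.97 and 13.01 in melanocytes. All iMet tumours lay below all melanocyte arrays, whereas 2 iHRAS* tumours, at 12.02 and 12.11, exceeded melanocyte array 3. It fell by 1.78 ± 0.35 in iMet tumours (3.44-fold, adjusted p = 0.00123) and by 1.24 ± 0.35 in iHRAS* tumours (2.36-fold, adjusted p = 0.0113) against melanocytes. Its level was highest in melanocyte arrays 2 and 4, those with the higher keratinocyte means, and without these arrays the difference was −1.44 in iMet tumours (adjusted p = 0.0335) and −0.89 in iHRAS* tumours (adjusted p = 0.164). Between the models it was −0.54 ± 0.32 (adjusted p = 0.243). Hspb8, which works with Bag3 in clearing aggregates by autophagy, was not called in any comparison, nor was Bag3. Hspb8 had a mean of 10.02 ± 0.35 in the iMet arrays, 9.52 ± 0.69 in the iHRAS* arrays and 10.08 ± 0.19 in the melanocyte arrays (SD; n = 6, 6 and 4, as for all such means). Bag3 had 9.89 ± 0.27 in the iMet, 10.07 ± 0.23 in the iHRAS* and 9.84 ± 0.39 in the melanocyte arrays.

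**Figure D3:**
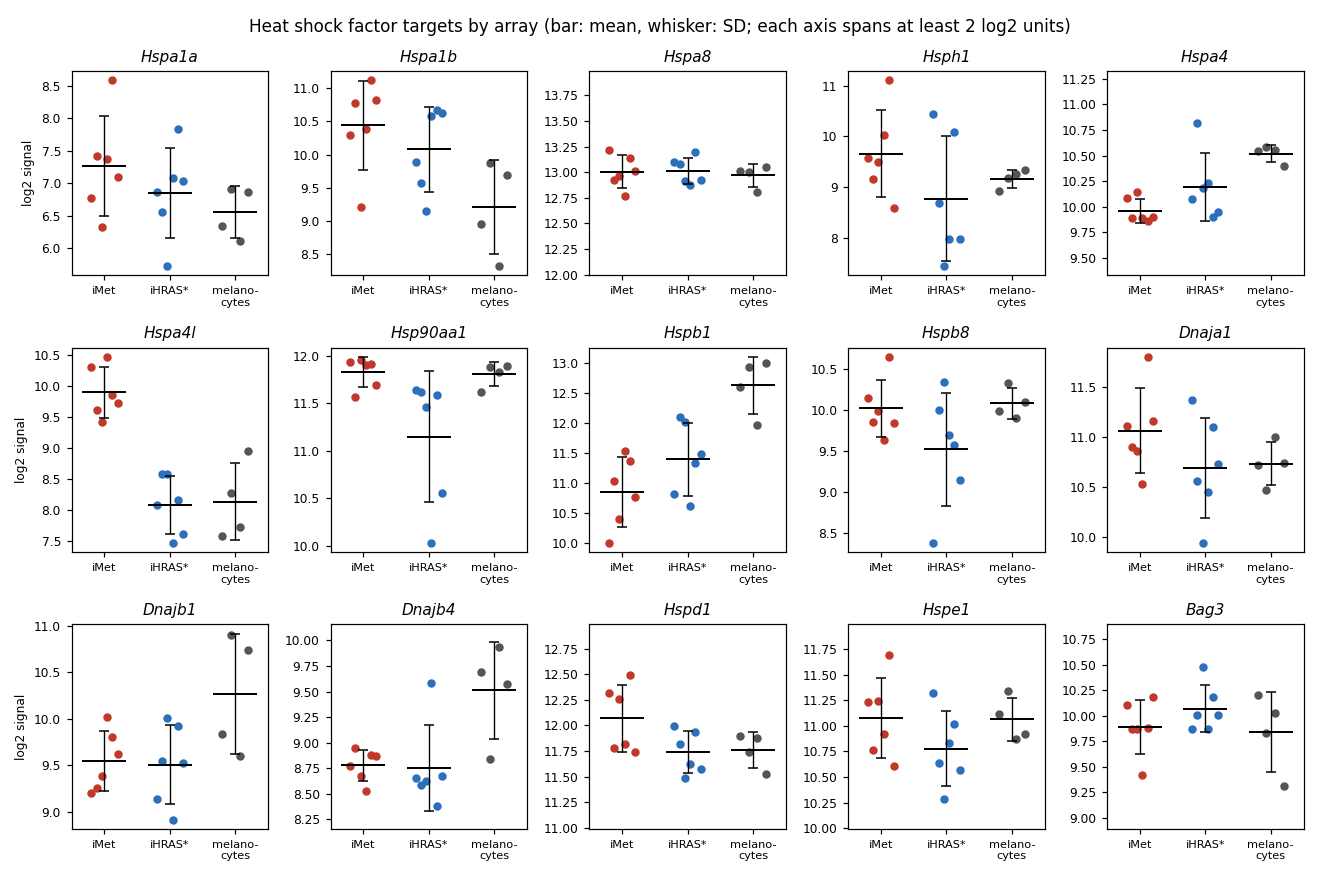
Log2 signal of the 15 heat shock factor targets on each array (vertical axes, each spanning at least 2 log2 units) in iMet tumours (red, n = 6), iHRAS* tumours (blue, n = 6) and melanocytes (grey, n = 4), with the mean and SD. Hspa4l is high in all 6 iMet tumours (9.42 to 10.47), Hspb1 is lower in iMet tumours than in melanocytes, and the Hspa8 values lie between 12.76 and 13.22 in all groups.

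The J proteins on the target list are the cytosolic partners of HSP70. Dnajb1, a heat-inducible one, ran from 9.20 through 9.505 to 10.02 in iMet tumours and from 8.92 through 9.54 to 10.01 in iHRAS* tumours, and was 9.84, 10.90, 9.60 and 10.74 in melanocytes. The melanocyte arrays fell into a high pair, 2 and 4, above all tumours, and a low pair among them. It fell by 0.76 ± 0.28 in iHRAS* tumours (adjusted p = 0.0423) and missed the threshold in iMet tumours (−0.72 ± 0.28, adjusted p = 0.0571). Without melanocyte arrays 2 and 4 these differences were −0.21 (adjusted p = 0.621) and −0.17 (adjusted p = 0.694). Dnajb4 ran from 8.53 through 8.82 to 8.94 in iMet tumours and from 8.38 through 8.64 to 9.59 in iHRAS* tumours, and was 9.69, 8.84, 9.94 and 9.57 in melanocytes. It was lower in most tumours than in melanocyte arrays 1, 3 and 4, and array 2 lay among the tumours. It fell by 0.73 ± 0.23 in iMet tumours (adjusted p = 0.0209) and by 0.76 ± 0.23 in iHRAS* tumours (adjusted p = 0.0154), and by 0.43 and 0.46, no longer called, without melanocyte arrays 1 and 3 (adjusted p = 0.266 and 0.215). Dnaja1, which also assists protein import into mitochondria, was not called; its mean was 11.06 ± 0.43 in the iMet, 10.69 ± 0.50 in the iHRAS* and 10.74 ± 0.21 in the melanocyte arrays.

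Hsp90aa1, the inducible cytosolic HSP90, was not called in any comparison. It ran from 11.56 through 11.91 to 11.96 in iMet tumours and from 10.03 through 11.53 to 11.64 in iHRAS* tumours, and was 11.62, 11.88, 11.83 and 11.89 in melanocytes. The values of iHRAS* arrays 4 and 6, 10.03 and 10.56, stood below all the others. The difference between the models was 0.68 ± 0.27 (adjusted p = 0.0908) and that of iHRAS* tumours against melanocytes −0.66 ± 0.27 (adjusted p = 0.0679). Its other probe sets gave 0.72 and −0.03 between the models. In the mitochondrial chaperonin, Hspd1 and its lid Hspe1 were not called either. Hspd1 had a mean of 12.07 ± 0.32 in the iMet, 11.74 ± 0.21 in the iHRAS* and 11.76 ± 0.17 in the melanocyte arrays. Hspe1 had 11.08 ± 0.40 in the iMet, 10.78 ± 0.36 in the iHRAS* and 11.06 ± 0.21 in the melanocyte arrays. The differences between the models were 0.33 ± 0.16 (adjusted p = 0.156) and 0.30 ± 0.21 (adjusted p = 0.333).

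Within the groups, the targets' deviations were unevenly spread over the arrays. On iMet array 5 and on iHRAS* array 5, 12 of the 15 targets lay above the mean of their own group, by 0.45 and 0.29 log2 on average, while iMet arrays 2 and 3 had 4 of 15 above. Hsph1 gave the widest deviations, with 1.45 on iMet array 5, 1.67 and 1.31 on iHRAS* arrays 1 and 5, and −1.32 on iHRAS* array 3. In melanocytes, arrays 2 and 4 had 11 of 15 targets above the group mean, and arrays 1 and 3 had 6 and 7. The share of all genes above their group mean on each array was not computed. Immediate early genes, which are induced within minutes of many stimuli, averaged 8.58 on iMet array 5 within 8.03 to 9.08 for the iMet group, and 8.88 on iHRAS* array 5 within 8.73 to 9.13. Their part in these deviations was not tested.

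**Figure D4:**
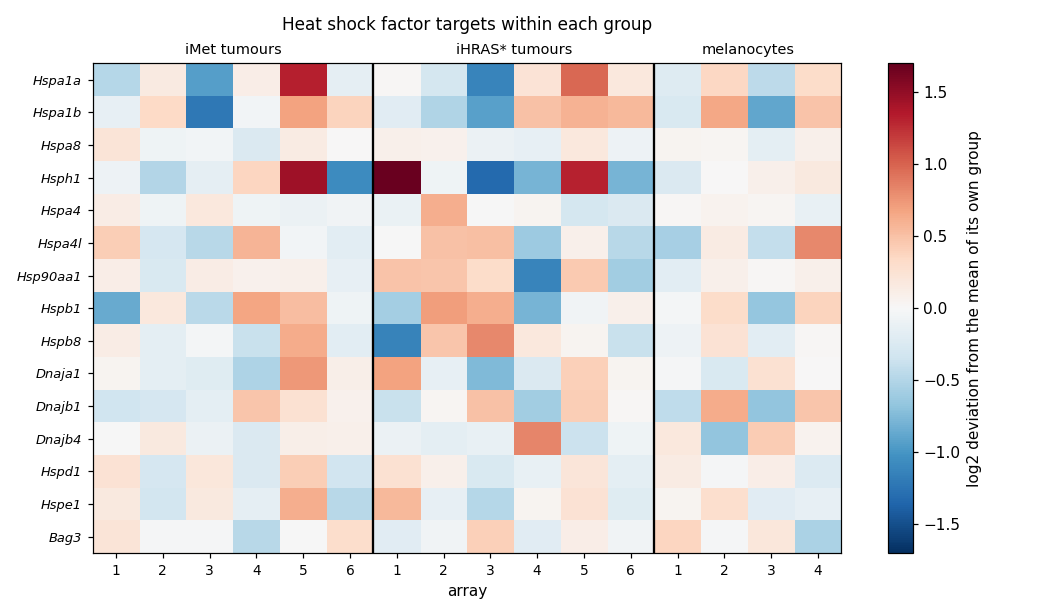
Deviation of each heat shock factor target from the mean of its own group (colour, log2), for the arrays of iMet tumours, iHRAS* tumours and melanocytes (columns, numbered as labelled). Array 5 of each tumour group has 12 of 15 targets above its group mean, and Hsph1 spans −1.32 to 1.67.

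Among HSP70 genes outside the target list, Hspa2, Hspa14 and Hspa9 separated groups. Hspa2, best known for its part in the development of sperm, ran from 5.77 through 6.55 to 6.77 in iMet tumours and from 6.55 through 6.98 to 7.26 in iHRAS* tumours, and was 8.19, 8.05, 8.21 and 8.08 in melanocytes. Every tumour lay below every melanocyte array. It fell by 1.73 ± 0.19 in iMet tumours (3.31-fold, adjusted p = 9.17e-06) and by 1.17 ± 0.19 in iHRAS* tumours (2.25-fold, adjusted p = 0.0003), and missed the threshold between the models (−0.56 ± 0.19, adjusted p = 0.0510). Hspa14, a ribosome-associated HSP70, ran from 8.97 through 9.17 to 9.39 in iMet tumours and from 8.52 through 8.61 to 8.69 in iHRAS* tumours, and was 9.41, 9.91, 9.18 and 9.32 in melanocytes. The iHRAS* tumours formed a tight group below all other arrays. It was higher in iMet than in iHRAS* tumours by 0.58 ± 0.10 (adjusted p = 0.00184) and fell by 0.85 ± 0.13 in iHRAS* tumours against melanocytes (adjusted p = 0.000243), while the difference of iMet tumours from melanocytes was −0.27 ± 0.13 (adjusted p = 0.128). The mean of its probe sets gave 0.43 between the models (adjusted p = 0.0520). Hspa9, the mitochondrial HSP70, had a mean of 10.54 ± 0.33 in the iMet, 10.14 ± 0.18 in the iHRAS* and 10.93 ± 0.05 in the melanocyte arrays. Against melanocytes it fell by 0.79 ± 0.16 in iHRAS* tumours (adjusted p = 0.00123) and was not called in iMet tumours (−0.39 ± 0.16, adjusted p = 0.0669).

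The remaining small heat shock proteins diverged. Hspb11, named as a small heat shock protein but also a subunit of the intraflagellar transport machinery of cilia, ran from 7.15 through 7.57 to 8.13 in iMet tumours and from 5.86 through 6.75 to 6.97 in iHRAS* tumours, and was 8.14, 7.72, 8.13 and 8.34 in melanocytes. All iHRAS* tumours lay below all other arrays. It was higher in iMet than in iHRAS* tumours by 0.99 ± 0.22, or 1.99-fold (adjusted p = 0.00699), and fell by 1.46 ± 0.23 in iHRAS* tumours against melanocytes (adjusted p = 0.000232). Hspb7, a small heat shock protein of heart and skeletal muscle, ran from 6.31 through 7.50 to 9.93 in iMet tumours and from 5.20 through 6.25 to 8.52 in iHRAS* tumours, and was 5.54, 4.87, 5.77 and 4.93 in melanocytes. All iMet tumours lay above all melanocyte arrays, with a spread of over 3 log2 units among them. None of the 4 melanocyte arrays exceeded the detection level of 6.21 for Hspb7, so its level in iMet tumours was at least 2.99-fold higher than in melanocytes, measured against that level, with means of 7.79 and 5.28. Skeletal muscle markers (12 genes) averaged 4.58 to 8.85 in iMet tumours, 3.91 to 7.83 in iHRAS* tumours and 4.23 to 4.92 in melanocytes, with 10 of the 12 under the detection level in melanocytes; 3 of the 10 tested rose in iMet tumours over melanocytes, and their part in this result was not tested. Hspb2 and Hspb3 were too dim to be tested. Hspb2 ran from 4.79 to 7.32 in iMet tumours, from 1.85 to 6.21 in iHRAS* tumours and from 3.67 to 6.24 in melanocytes. Hspb3 ran from 3.33 to 6.13 in iMet tumours, from 1.93 to 5.45 in iHRAS* tumours and from 5.35 to 6.79 in melanocytes.

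Of the BAG proteins, which release the nucleotide from HSP70, Bag1 and Bag5 fell in both tumour models. In iMet tumours 4 of the 6 fell (Bag1, Bag4, Bag5 and Bag6), where 18.7% of all genes did, and 0 rose (16.4% of all genes). In iHRAS* tumours 3 fell (Bag1, Bag2 and Bag5, against 21.3% of all genes) and 0 rose (18.1%). None was called between the models, where 20.9% of all genes were. There 2 of the 6 passed an unadjusted p under 0.05 in limma, as did at least that share of all genes. Bag1, which links HSP70 to the proteasome and to survival signalling, ran from 9.65 through 9.94 to 10.10 in iMet tumours and from 9.62 through 9.97 to 10.27 in iHRAS* tumours, and was 10.70, 10.60, 10.36 and 10.79 in melanocytes. Bag5, known for inhibiting HSP70 and the ubiquitin ligase parkin, ran from 7.66 through 8.17 to 8.45 in iMet tumours and from 7.31 through 7.71 to 8.21 in iHRAS* tumours, and was 8.93, 8.85, 9.01 and 9.02 in melanocytes. For both genes every tumour lay below every melanocyte array. Bag1 fell by 0.71 ± 0.14 (adjusted p = 0.00126) in iMet and 0.68 ± 0.14 (adjusted p = 0.00152) in iHRAS* tumours, and Bag5 fell by 0.79 ± 0.19 (adjusted p = 0.00542) and by 1.21 ± 0.19 (adjusted p = 0.000252). These 4 calls were kept in every alternative. Bag4 and Bag6 fell by 0.41 ± 0.14 (adjusted p = 0.0368) and 0.56 ± 0.16 (adjusted p = 0.0133) in iMet tumours, and without melanocyte arrays 2 and 4 gave −0.43 (adjusted p = 0.118) and −0.41 (adjusted p = 0.148). Bag2, which holds back the ubiquitin ligase CHIP, fell by 0.89 ± 0.29 in iHRAS* tumours (adjusted p = 0.0231), but by 0.28 without melanocyte arrays 1 and 3 (adjusted p = 0.426). Hspbp1, which like BAG proteins releases the nucleotide of HSP70, fell by 0.51 ± 0.16 in iHRAS* tumours against melanocytes (adjusted p = 0.0182), a call lost in 6 of 22 alternatives, and was not called in the other comparisons.

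The cytosolic chaperonin, the ring that folds actin and tubulin, is built of subunits of which 7 were tested. Cct8 ran from 10.40 through 10.57 to 11.04 in iMet tumours and from 9.74 through 10.25 to 10.41 in iHRAS* tumours, and was 10.73, 10.62, 10.71 and 10.85 in melanocytes. The tumour groups met only at the edge, and iHRAS* tumours lay wholly below the melanocytes. Between the models 1 of the 7 was called (14.3%, against 20.9% of all genes), Cct8, which was higher in iMet tumours, by 0.46 ± 0.15 (adjusted p = 0.0396), a call that was lost in 9 of 21 alternatives, and Cct5 came near it with 0.52 ± 0.17 (adjusted p = 0.0522). In iHRAS* tumours all 7 differences from melanocytes were negative by the probe sets used, and 3 were called lower (42.9%, against 21.3% of all genes). Cct7 fell by 0.66 ± 0.14 (adjusted p = 0.00244), Cct8 by 0.56 ± 0.15 (adjusted p = 0.00835) and Cct6a by 0.40 ± 0.15 (adjusted p = 0.0436). In iMet tumours only Cct7 was called of the 7 (14.3% lower, against 18.7%), falling by 0.41 ± 0.14 (adjusted p = 0.0386), and by 0.24 without melanocyte arrays 2 and 4 (adjusted p = 0.350). Without those arrays the 3 differences in iHRAS* tumours were −0.49, −0.56 and −0.29 (adjusted p = 0.0595, 0.0587 and 0.262). By the probe sets used, Cct2, Cct3 and Cct4 differed between the models by −0.02 to 0.01, with standard errors of 0.11 to 0.12. Their differences from melanocytes were −0.34 to −0.20, uncalled. Other probe sets with a group mean over the detection level gave other values. For Cct4 these were −0.36, −0.31, −0.54 and −0.33 between the models, and 0.05, −0.07, 0.28 and −0.23 in iHRAS* tumours against melanocytes. Between the models they were 0.15, 0.04, 0.36 and 0.22 for Cct3, and 0.09 and −0.19 for Cct2. Cct6b, a testis form, was too dim to be tested, at 3.44 to 5.18 in iMet tumours, 3.99 to 5.56 in iHRAS* tumours and 4.48 to 5.68 in melanocytes.

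Of the 38 J proteins 31 were tested, and their calls went in both directions between the models (4 higher and 5 lower in iMet tumours, or 12.9% and 16.1%, against 11.2% and 9.7% of all genes). In family A, which resembles the bacterial protein DnaJ most, Dnaja2 was higher in iMet tumours by 0.29 ± 0.10 (adjusted p = 0.0486), a call lost in 14 of 22 alternatives, and Dnaja2 and the mitochondrial Dnaja3 fell in iHRAS* tumours against melanocytes by 0.49 ± 0.10 (adjusted p = 0.0014) and 0.64 ± 0.14 (adjusted p = 0.00293). Dnaja4 was not called in any comparison (−0.29 between the models, adjusted p = 0.156). In family B, Dnajb5 ran from 6.61 through 6.92 to 7.34 in iMet tumours and from 7.37 through 7.66 to 8.01 in iHRAS* tumours, and was 8.83, 7.88, 8.43 and 7.68 in melanocytes. Its iMet values lay below those of both other groups. It was lower in iMet than in iHRAS* tumours, at −0.72 ± 0.15 (adjusted p = 0.00517) and fell by 1.27 ± 0.21 against melanocytes (adjusted p = 0.000378), but as deposited the first difference was −0.47 (adjusted p = 0.0977), and 1 of its 3 probe sets, the dimmest, gave 0.26 between the models. Dnajb12, an endoplasmic reticulum membrane protein, was lower in iMet than in iHRAS* tumours, at −0.49 ± 0.13 (adjusted p = 0.0192), at −0.25 as deposited (adjusted p = 0.103) and at 0.01 by its second probe set. It fell by 0.53 ± 0.17 in iMet tumours against melanocytes (adjusted p = 0.0276), and by 0.28 without melanocyte arrays 1 and 3 (adjusted p = 0.333).

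In family C, Dnajc24, which takes part in making the diphthamide residue of translation elongation factor 2, ran from 6.24 through 6.43 to 6.88 in iMet tumours and from 5.46 through 5.77 to 6.20 in iHRAS* tumours, and was 6.92, 6.95, 7.02 and 6.86 in melanocytes. The iHRAS* tumours lay below all other arrays and all of them were under the detection level. Measured against that level, Dnajc24 was at least 1.2-fold higher in iMet than in iHRAS* tumours, with means of 6.47 and 5.81. In iHRAS* tumours it was at least 1.65-fold lower than in melanocytes (adjusted p = 8.68e-05 for the fitted −1.12 ± 0.16). Dnajc13, which acts in sorting at endosomes, was the J protein that rose in both models: it ran from 9.65 through 9.78 to 10.002 in iMet tumours and from 9.23 through 9.48 to 9.67 in iHRAS* tumours, and was 8.496, 8.46, 9.02 and 9.01 in melanocytes. Every tumour lay above every melanocyte array. The rise was 1.06 ± 0.14, or 2.09-fold, in iMet tumours (adjusted p = 6.84e-05) and 0.73 ± 0.14, or 1.66-fold, in iHRAS* tumours (adjusted p = 0.0012). Dnajc11 and Dnajc30, both of mitochondria, fell in iMet tumours by 0.59 ± 0.16 (adjusted p = 0.00885) and 0.58 ± 0.12 (adjusted p = 0.00175), and in iHRAS* tumours by 0.68 ± 0.16 (adjusted p = 0.00318) and 0.50 ± 0.12 (adjusted p = 0.00395). Dnajc5, the cysteine string protein of secretory vesicles, fell by 0.63 ± 0.12 in iMet tumours against melanocytes (adjusted p = 0.00106), and Dnajc4 fell by 0.52 ± 0.14 (adjusted p = 0.0119). The dim members Dnajb3, Dnajb7, Dnajb8, Dnajb13, Dnajc5b, Dnajc17 and Dnajc28 were not tested, nor were Hspa1l and Hspa12b. Dnajc17 had 3 melanocyte arrays and Hspa12b 3 iMet arrays over the detection level.

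**Figure D5:**
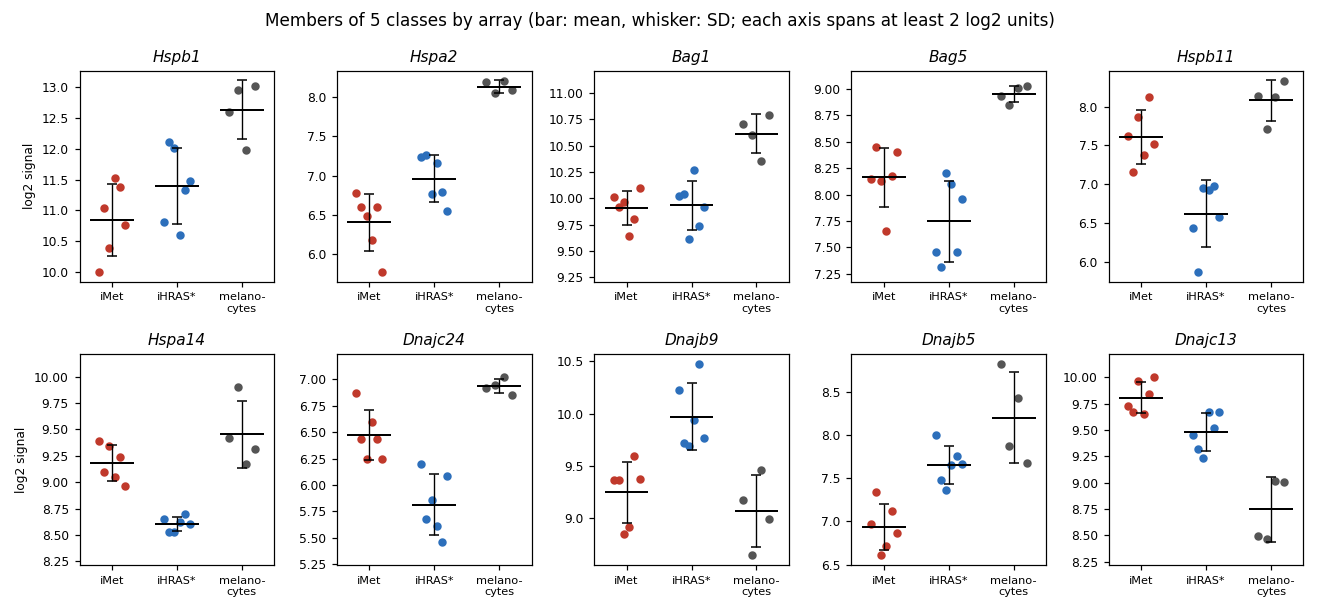
Log2 signal by array (vertical axes, each spanning at least 2 log2 units) of 10 members from 5 classes in iMet tumours (red, n = 6), iHRAS* tumours (blue, n = 6) and melanocytes (grey, n = 4), with the mean and SD. Hspb11, Hspa14 and Dnajc24 are lowest in iHRAS* tumours, Bag1, Bag5 and Hspa2 are lower in both tumour groups, and Dnajc13 is higher in both.

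The list of endoplasmic reticulum stress genes held 6 measured members, and Dnajb12, described above, was not on it. Of the 6, 1 was called between the models (16.7%, against 20.9% of all genes) and 2 in each model against melanocytes (33.3%, against 35.1% for iMet and 39.3% for iHRAS*). On this list Hspa5 (BiP), Dnajc3 and Dnajc10 were not called in any comparison. For Dnajc3 the probe set used gave 0.07 in iMet and −0.63 in iHRAS* tumours against melanocytes. Its other probe sets gave 0.34, 0.74, 0.87 and 0.41 in iMet tumours, and −0.09, 0.06, 0.53 and −0.39 in iHRAS* tumours. Between the models the one used gave 0.70 and the others 0.34 to 0.80. Hspa5 ran from 12.003 through 12.30 to 12.71 in iMet tumours and from 11.01 through 12.08 to 12.68 in iHRAS* tumours, and was 12.38, 12.14, 12.38 and 12.13 in melanocytes, with iHRAS* arrays 2 and 3 lowest at 11.65 and 11.01 and a difference of 0.34 ± 0.26 between the models (adjusted p = 0.372). Hsp90b1, the HSP90 of the endoplasmic reticulum, ran from 11.42 through 11.61 to 11.92 in iMet tumours and from 11.37 through 11.52 to 11.84 in iHRAS* tumours, and was 11.07, 11.14, 11.30 and 11.37 in melanocytes. The iMet tumours lay above the melanocytes by 0.41 ± 0.13 (adjusted p = 0.0232), which was 0.35 as deposited (adjusted p = 0.0664), and iHRAS* tumours by 0.34 ± 0.13 (adjusted p = 0.0516). The second Hsp90b1 probe set gave 0.35 for iMet tumours, but −0.24 for iHRAS* tumours against melanocytes and 0.59 between the models, where the first gave 0.08. Dnajb9, a BiP partner that holds the stress sensor IRE1 inactive, ran from 8.86 through 9.37 to 9.60 in iMet tumours and from 9.70 through 9.85 to 10.48 in iHRAS* tumours, and was 9.18, 8.65, 9.47 and 8.99 in melanocytes. All iHRAS* tumours lay above all other arrays. It was lower in iMet than in iHRAS* tumours, at −0.72 ± 0.17 (adjusted p = 0.0117), and −0.49 as deposited (adjusted p = 0.0752), and it rose by 0.90 ± 0.20 in iHRAS* tumours over melanocytes (1.87-fold, adjusted p = 0.00283), or by 0.65 without melanocyte arrays 2 and 4 (adjusted p = 0.0663). Dnajb11, another BiP partner, fell by 0.68 ± 0.22 in iMet tumours (adjusted p = 0.0233) and by 0.61 ± 0.22 in iHRAS* tumours (adjusted p = 0.0344), and by 0.43 and 0.37, no longer called, without melanocyte arrays 1 and 3 (adjusted p = 0.255 and 0.315).

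The letters of an endoplasmic reticulum stress element, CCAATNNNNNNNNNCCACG on either strand, occurred in the promoters of 3 members, Hspa5, Hsp90b1 and Dnajc3, of 7 of the 20 listed genes of this response with a promoter (35%), and of 37 of 27025 genes of the table (0.137%). That of Hspa5 is shown with the match in capitals, which begins 65 bases before the transcript start of that window.
Hspa5 (chr2:34771840-34772139, plus strand): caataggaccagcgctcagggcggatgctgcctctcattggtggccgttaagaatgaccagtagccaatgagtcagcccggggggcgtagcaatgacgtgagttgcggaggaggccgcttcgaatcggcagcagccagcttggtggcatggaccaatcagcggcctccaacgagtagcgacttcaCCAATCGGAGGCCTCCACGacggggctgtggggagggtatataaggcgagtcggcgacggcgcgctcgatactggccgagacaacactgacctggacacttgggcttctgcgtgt
The window of Dnajb9, which rose in iHRAS* tumours, holds no such match.

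Genes that work with these chaperones were taken from lists of their own. Of 7 further heat shock factor targets only Cryab, a small heat shock protein of lens and muscle, was called, between the models (14.3%, against 20.9% of all genes) and in iMet tumours against melanocytes (14.3%, against 35.1%), and 0 of the 7 were called in limma in iHRAS* tumours against melanocytes (39.3% of all genes), where 0 also had an unadjusted p under 0.05. Cryab ran from 6.33 through 7.75 to 8.40 in iMet tumours and from 8.72 through 10.01 to 10.33 in iHRAS* tumours, and was 10.77, 9.09, 10.73 and 9.51 in melanocytes. All iMet tumours lay below all other arrays. It was lower in iMet than in iHRAS* tumours, at −2.03 ± 0.38 (4.09-fold, adjusted p = 0.0033), and fell by 2.38 ± 0.46 in iMet tumours against melanocytes (adjusted p = 0.00108), which held in every alternative. Of the heat shock factors, Hsf2 and Hsf4 were too dim to be tested. Hsf1 and Hsf5 had no probe set of their own, so their levels were not examined. Hsbp1, which binds the heat shock factor trimer, was called in iHRAS* tumours against melanocytes, falling by 0.38 ± 0.12 (adjusted p = 0.0213), a call lost in 4 of 22 alternatives.

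Of 11 HSP90 co-chaperones 3 were called between the models (27.3%, against 20.9% of all genes), 2 in iMet tumours against melanocytes (18.2%, against 35.1%) and 1 in iHRAS* tumours against melanocytes (9.09%, against 39.3%). Fkbp5, a prolyl isomerase of HSP90 complexes with steroid receptors, ran from 10.88 to 11.67 in iMet tumours (mean 11.11) and from 9.64 to 10.66 in iHRAS* tumours (mean 10.16), and was 9.17, 9.10, 8.88 and 8.26 in melanocytes. The 3 groups did not overlap. It was higher in iMet than in iHRAS* tumours by 0.95 ± 0.20 (adjusted p = 0.00563) and rose over melanocytes by 2.26 ± 0.23 in iMet tumours (4.78-fold, adjusted p = 4.68e-06) and by 1.31 ± 0.23 in iHRAS* tumours (adjusted p = 0.000573). Unc45a, which serves myosin, was lower in iMet than in iHRAS* tumours, at −0.96 ± 0.17 (adjusted p = 0.00289), and Sugt1 was higher by 0.76 ± 0.22 (adjusted p = 0.0265), a call lost without iMet array 1, 3 or 4.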

How the data were processed

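RNA of 6 iMet tumours, 6 iHRAS* tumours and 4 melanocyte samples was hybridised to Affymetrix mouse 430A 2.0 arrays after linear amplification from oligo-dT, per the labels' protocols. The authors deposited 1 log2 value per probe set and array, as the values show (−4.07 to 14.53), and the software that summarised them is not stated in what was used here. Array medians ran from 6.56 to 7.28, a spread of 0.719, so the arrays were quantile normalised. Of 22690 probe sets, 64 controls were dropped, and of the other 22626, 20380 had 1 gene symbol, 691 several and 1555 none. Each of 12393 genes was represented by the probe set with the highest mean over all 16 arrays. A gene was tested where at least as many arrays as the smallest group in the fit holds (6 between the models, 4 against melanocytes) exceeded the 40th percentile of all values (log2 6.21), called the detection level here. limma 3.58.1 in R 4.3.3 compared the tumour models over 12 arrays (8058 genes) and each model with melanocytes over 16 arrays (8651 genes), two-sided, with Benjamini-Hochberg adjustment over all genes tested and calls at an adjusted p under 0.05; every adjusted p in the text is from these limma fits. The fit was tested on simulated data.

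The members and the gene lists (heat shock factor targets, endoplasmic reticulum and mitochondrial chaperones, co-chaperones, cell markers) were chosen with earlier results of these data known. Values, for dim members as ranges, are given for every heat shock factor target, every member of a class of 10 or fewer, and in larger classes the called members whose groups did not overlap, up to 8 a comparison. From the other lists called genes are named by smallest p, up to 4 a list. Promoters of members were matched by gene identifier, 62 of 75, to a RefSeq table (GRCm38.p6), and those of the listed endoplasmic reticulum stress genes by symbol. Dnajc19, covered only by probe sets that carry a further symbol, was not analysed here. Hsp90ab1, a listed heat shock factor target, had no probe set of its own and was not analysed either. The number of arrays limits the precision. Alternatives were the scaling, the filter, the probe set rule, the variance model, the samples fitted, a block for the replicate number and leaving out arrays.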

Additional observations from a re-analysis of the deposited data

Results flagged for a closer look

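On 6 of the 141 groups examined over 47 genes, 1 array stood apart from its group by Dixon's criterion, about as many as chance gives at 1 group in 20. These were Hspa4 on iHRAS* array 2 (10.82), Dnajb4 on iHRAS* array 4 (9.59), Dnajb12 on iMet array 5 (8.57, the lowest), Dnajc11 on iMet array 6 (7.41, the lowest), and Cct6a and Dnajc5 on melanocyte array 2 (12.55 and 10.35). Without melanocyte array 2 the Cct6a difference of iHRAS* tumours from melanocytes was −0.30 and no longer called (limma adjusted p = 0.157), against −0.40 with it.

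The difference from melanocytes was not the same in both tumour models for 13 of 63 members, by the limma calls of iMet against iHRAS* tumours. That was 20.6%, against 20.9% of all genes. The melanocyte mean cancels, so these are the same 13 calls as those between the models above. The difference from melanocytes was higher in iMet tumours for Hspa4l (1.82), Hspb11 (0.99), Dnajc24 (0.66), Hspa14 (0.58), Dnajc27 (0.48), Cct8 (0.46), Dnajc9 (0.42) and Dnaja2 (0.29). It was lower for Dnajb5 (−0.72), Dnajb9 (−0.72), Dnajc12 (−0.50), Dnajb12 (−0.49) and Dnajc5 (−0.36). The value of Dnajc24 is a description without a test, because it was under the detection level on all 6 iHRAS* arrays and passed the filter only through its 6 iMet arrays. The call of Hspa4l held in all 22 alternatives and that of Hspb11 in the 21 that gave it a value, whereas those of Dnajc12, Dnajc5, Dnajc9 and Dnaja2 were lost in 17 of 21, 15 of 22, 14 of 22 and 14 of 22.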

How the results depend on the processing

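Of 2740 values of single genes under an alternative, 2439 kept their side of the threshold (2373 with the same sign, 66 uncalled values with the other), 284 lost the call and 16 gained one. In 1 a called gene changed sign: the mean of all probe sets turned Hyou1 between the models to 0.28 (adjusted p = 0.646). Calls held under every alternative that gave a value for 3 of 13 members between the models, 9 of 22 in iMet and 11 of 25 in iHRAS* tumours against melanocytes. Between the models the filter left Hspb11 without a value in 1 of 22 alternatives and Dnajc24 without one in 2. The cause of the shifts below was not tested. Between the models, called members numbered 8 with no filter (5 higher, 3 lower; 12.3% of all genes were called) and 4 with the mean of all probe sets (2 higher, 2 lower; 18.7% of all genes). The values as deposited gave 18 higher and 0 lower (22% and 5.47% of all genes), median centring 3 lower (7.83%), and a replicate block 5 higher (7.71%). For iMet tumours against melanocytes, median centring gave 3 higher and 28 lower members (13.6% and 26.7% of all genes). Leaving out melanocyte arrays 1 and 3 gave 3 higher (13.7%), and 3 heat shock factor targets called (26.8%). For iHRAS* tumours against melanocytes, 15 members were lower without melanocyte arrays 2 and 4 (12.3% of all genes), and 15 without iHRAS* arrays 5 and 6 (17.3%). The heat shock factor targets called there numbered 6 as deposited (43.3% of all genes), 5 with median centring (45.1%), and 1 each with a replicate block (32.7%), with only the compared groups fitted (33%), or without iHRAS* arrays 5 and 6 (32.5%).

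With 1 array left out, members called between the models ran from 8 (without iMet array 1 or 3) to 12 while 15.8% to 22.1% of all genes were called. Higher ones ran from 4 (without iMet array 1, and 5 on leaving out iMet array 3 or the first iHRAS* array) to 8, against 8.08% to 12.1% of all genes. Lower ones ran from 3 (when iMet array 2, 3, 5 or 6, or array 2 or 4 of iHRAS*, was left out) to 5, against 7.67% to 9.98%. There was 1 heat shock factor target called throughout. For iMet tumours against melanocytes the called members ran from 16 to 24 (27.7% to 33% of all genes), with 4 to 6 higher (13.7% to 15.4%). Lower ones there ran from 11 (without melanocyte array 2) to 19 (14% to 18%), and targets from 4 to 6. For iHRAS* tumours the called members ran from 21 to 29 (31.1% to 41.3% of all genes), with 2 to 4 (without iHRAS* array 3) higher (14.6% to 18.6%). Lower ones there ran from 19 to 25 (16.4% to 22.7%), and targets from 2 to 4. Arrays of like number showed little common deviation (r from −0.22 to 0.11 over the pairs). With 6 or 4 pairs a comparison this gave no sign of pairing but cannot exclude it. The block is given only here. Dim genes, Hsf2 and Hsf4 among them, could not be tested.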

Other observations

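Several partners of the mitochondrial and cytosolic chaperone systems fell in both tumour models against melanocytes. Of 7 further genes of mitochondrial protein quality control, 3 fell in each model (42.9%, against 18.7% of all genes in iMet and 21.3% in iHRAS* tumours) and 0 rose. Lonp1, the protease of the mitochondrial matrix, ran from 8.07 through 8.13 to 8.21 in iMet tumours and from 7.36 through 8.06 to 8.31 in iHRAS* tumours, and was 8.67, 8.92, 8.80 and 8.69 in melanocytes. Every tumour lay below every melanocyte array, and the fall was 0.63 ± 0.15 in iMet tumours (limma adjusted p = 0.00458) and 0.83 ± 0.15 in iHRAS* tumours (adjusted p = 0.000677). Grpel1, the nucleotide exchange factor of Hspa9, fell by 0.82 ± 0.20 in iMet tumours (adjusted p = 0.00525) and by 0.97 ± 0.20 in iHRAS* tumours (adjusted p = 0.00152). Hscb, a J protein of iron-sulfur cluster assembly, fell by 0.87 ± 0.21 in iMet tumours (adjusted p = 0.0055) and by 1.20 ± 0.21 in iHRAS* tumours (adjusted p = 0.000568). Between the models 1 of the 7 was called, Trap1, the mitochondrial HSP90, which was higher in iMet tumours by 0.43 ± 0.13 (adjusted p = 0.0328), a call lost in 9 of 22 alternatives.

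Of 7 partners of the cytosolic chaperonin, prefoldin subunits among them, 3 fell in iMet tumours (42.9%, against 18.7% of all genes) and 4 in iHRAS* tumours (57.1%, against 21.3%). Between the models 0 were called in limma, where 20.9% of all genes were. There 2 of the 7 had an unadjusted p under 0.05, as did at least that share of all genes. Pfdn2, a prefoldin subunit, ran from 7.44 through 7.84 to 8.20 in iMet tumours and from 7.24 through 7.61 to 7.90 in iHRAS* tumours, and was 9.07, 8.91, 8.40 and 8.13 in melanocytes. The iHRAS* tumours lay below all melanocyte arrays, and the iMet tumours overlapped with array 4. It fell by 0.80 ± 0.21 in iMet tumours (limma adjusted p = 0.00897) and by 1.02 ± 0.21 in iHRAS* tumours (adjusted p = 0.00165). Pfdn1 fell by 0.97 ± 0.20 in iMet (adjusted p = 0.00196) and by 0.89 ± 0.20 in iHRAS* tumours (adjusted p = 0.00319), and Pdcl3 by 0.71 ± 0.14 (adjusted p = 0.00123) and by 0.79 ± 0.14 (adjusted p = 0.000515).

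Among 17 further genes of the endoplasmic reticulum stress response, 3 were called between the models (17.6%, against 20.9% of all genes), 2 in iMet tumours against melanocytes (11.8%, against 35.1%) and 3 in iHRAS* tumours (17.6%, against 39.3%). Trib3, a pseudokinase induced by that response, ran from 6.12 through 7.09 to 7.39 in iMet tumours and from 5.82 through 6.58 to 7.72 in iHRAS* tumours, and was 9.16, 8.28, 9.76 and 7.84 in melanocytes. All tumours lay below all melanocyte arrays, and it fell by 1.78 ± 0.39 in iMet tumours (limma adjusted p = 0.00283) and by 2.10 ± 0.39 in iHRAS* tumours (adjusted p = 0.000816). Pdia6, a disulfide isomerase, was higher in iMet than in iHRAS* tumours by 0.92 ± 0.20 (adjusted p = 0.00652). Xbp1, a transcription factor that IRE1 activates by splicing, rose by 0.64 ± 0.14 in iHRAS* tumours over melanocytes (adjusted p = 0.0028), and was lower in iMet than in iHRAS* tumours, at −0.38 ± 0.12 (adjusted p = 0.041), a call lost in 13 of 22 alternatives. Both comparisons with melanocytes share the same 4 arrays, and the part of the cell markers in these results was not tested.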
